A study of Arabidopsis thaliana with 236 samples.

Results

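The measurements described here are 27 of the 236 arrays of a study of Arabidopsis thaliana Col-0 roots: cortex cells 8, 10, 12, 14 and 16 h after transfer to high nitrate, set against cortex cells at the same hours after treatment with rhizobium. The arrays were chosen by sample title. For arrays titled 8 h the series design text lists another hour, and it names epidermal cells where titles give pericycle. Titles were followed for both. The nitrogen group holds 12 arrays (2, 3, 2, 2 and 3 at 8, 10, 12, 14 and 16 h) and the rhizobium group 15 (3 at each hour). Seedlings of both groups, whose cells the labels give as 12 days old, had grown for 9 days on plates with 0.1 mM KNO3 under 16 h of light and 8 h of dark, and were treated at dawn, so the window of 8 to 16 h lies in the light by these labels. Nitrogen plants were moved to 5 mM KNO3. Rhizobium plants were given the soil bacterium Sinorhizobium meliloti (OD600 0.8) and stayed on 0.1 mM KNO3. The groups therefore differ both in nitrate and in the bacterium, and since no untreated arrays enter, which group moved cannot be told apart. All plants carried a GFP reporter line, not named in the labels, that marked the cells to be sorted as protoplasts by fluorescence-activated cell sorting.

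Each array gives the log2 intensity of 27143 loci, after averaging the rows of a locus. The difference reported throughout is nitrogen minus rhizobium on the log2 scale, where 1 unit is a 2-fold difference in intensity, taken within each hour and averaged with equal weight over the 5 hours. Errors are standard errors (SE) from limma, a linear model fitted across all loci, and a locus is called higher or lower where its Benjamini-Hochberg adjusted p over all loci is below 0.05. Whether replicate arrays stem from independent plantings is not stated, and the p-values cover only the spread among these arrays, part of which may be technical. Array medians ran from 8.36 to 8.90. The mean correlation of an array with the others of its group ran from 0.842 (rhizobium 8 h replicate 2) to 0.954.

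Nitrate is both the main nitrogen source of the root and a signal. It enters through transporters of the NRT families, is reduced to nitrite and then ammonium by nitrate and nitrite reductase, and is built into amino acids through glutamine and glutamate. NIN-like transcription factors (NLPs) carry the early signal, and repressors of the HRS1/HHO group, LBD37 to LBD39 and BT2 limit the genes used under nitrogen starvation, such as high-affinity transporters. Arabidopsis does not form nodules with rhizobia. It perceives bacteria through pattern receptors and MAP kinases, and its defence hormones include jasmonate, whose JAZ repressors are themselves switched on by the hormone.

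In cortex cells at 8 to 16 h, the ammonium transporter gene AMT1;1, the amino acid importer gene LHT1 and the urea transporter gene DUR3 were lower on nitrogen than on rhizobium arrays. The nitrite reductase gene NIR1, the reductant genes G6PD3 and RFNR2 and the haemoglobin gene HB1 were higher. Of 27 jasmonate genes, 18 were lower on nitrogen arrays, as were the lipid galactosyltransferase gene MGDC (synonym MGD3) and the homeobox gene HB53. In all, 1286 loci (4.74% of those tested) were higher and 1607 (5.92%) lower on nitrogen arrays, 10.7% together. Of these calls, 1046 higher and 1284 lower loci had the same sign at all 5 hours (8.58% of loci tested). A difference of at least 1 log2 unit was reached by 712 of the higher and 788 of the lower loci (5.53%). The median difference over all loci was 0.01.

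**Figure D1:**
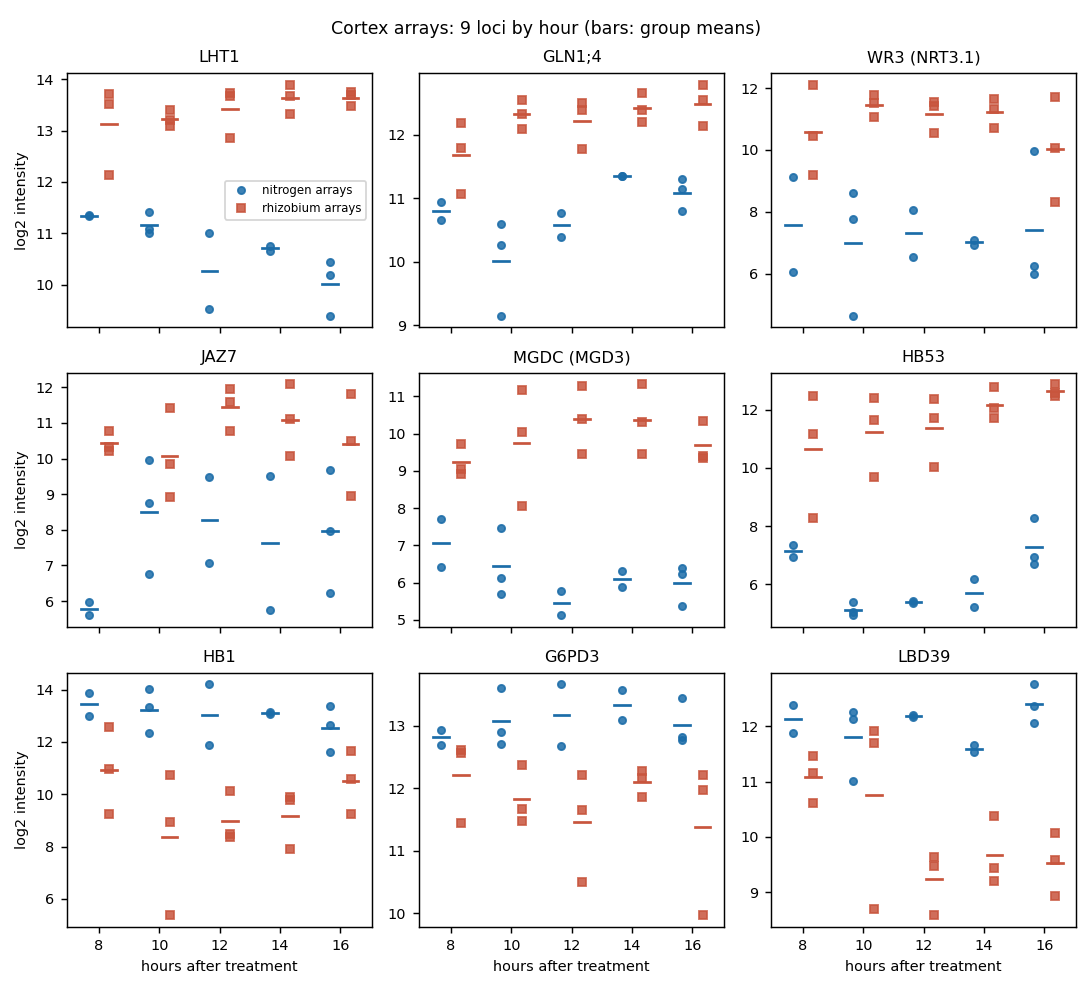
Log2 intensity of 9 loci (y axes) on each cortex array against hours after treatment (x axes). Circles are nitrogen arrays, squares to their right rhizobium arrays, and bars the means of each group of 2 or 3 arrays; LHT1, MGDC and HB53 are lower on all 12 nitrogen arrays than on any of the 15 rhizobium arrays, and G6PD3 is higher on all 12.

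Among called loci with 1 sign at all 5 hours, the largest difference in either direction was that of HB53, which encodes a homeodomain-leucine zipper transcription factor. On nitrogen arrays its lowest, median and highest log2 intensities were 4.93, 5.80 and 8.27, against 8.28, 12.05 and 12.87 on rhizobium arrays. The groups did not overlap, which held for 22 of all loci (0.0811%), 13 of them above on nitrogen arrays (0.0479%) and 9 below (0.0332%). The mean difference was -5.49 ± 0.52 (adjusted p = 3.9e-10), and the same-hour values ran from -3.51 at 8 h to -6.48 at 14 h. At 1 to 6 h the homeobox gene was not called (-0.76, adjusted p = 0.4).

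Among the other 11 largest lower values were RNS1, a secreted ribonuclease, the MYB factor gene MYB74, and ELI3-2, which the reference names an elicitor-activated gene. RNS1 had 4.81, 9.39 and 12.43 (lowest, median, highest) on nitrogen arrays, against 11.36, 13.14 and 14.36 on rhizobium arrays, and a difference of -3.96 ± 0.53 (adjusted p = 7.7e-07). Of the 12 nitrogen arrays, 9 lay below every rhizobium array, and the others overlapped the low rhizobium values. MYB74 differed by -3.68 ± 0.46 (adjusted p = 2.1e-07), with 4.90, 5.77 and 9.35 on nitrogen arrays and 8.36, 10.07 and 11.91 on rhizobium arrays. ELI3-2 differed by -3.66 ± 0.64 (adjusted p = 6.3e-05). The remaining members of these 12 were WR3, MGDC and AT3G59580, described with their pathways, and 5 loci with no symbol in the reference table: AT3G48344 (-4.19), AT4G15990 (-3.84), AT3G43250 (-3.53), AT3G48346 (-3.52) and AT5G56840 (-3.39).

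The largest higher value was that of AT1G68238, a locus with no symbol. It had 10.44, 11.64 and 12.68 on nitrogen arrays, against 5.17, 5.80 and 10.47 on rhizobium arrays, a difference of 5.12 ± 0.48 (adjusted p = 3.9e-10). Of the 12 nitrogen arrays, 11 stood above every rhizobium array, and 14 of the 15 rhizobium arrays lay below every nitrogen array. TPPB, a trehalose-6-phosphate phosphatase of the sugar signalling pathway, had 7.62, 9.99 and 11.13 on nitrogen arrays, against 4.80, 5.50 and 9.18 on rhizobium arrays (difference 3.76 ± 0.36, adjusted p = 3.9e-10). The phosphatase gene was called in pericycle cells too, at 2.10.

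HDA3, a plant-specific histone deacetylase, was higher by 3.30 ± 0.54 (adjusted p = 2.2e-05), and its groups overlapped, with 9.91 to 13.67 on nitrogen arrays and 5.80 to 13.06 on rhizobium arrays. MLS, malate synthase of the glyoxylate cycle, was higher by 3.29 ± 0.48 (adjusted p = 2.6e-06). TOM6, a small subunit of the mitochondrial protein import pore, was higher by 3.29 ± 0.47 (adjusted p = 2e-06); its nitrogen arrays lay close together, between 11.94 and 13.74, while its rhizobium arrays spread from 5.08 to 12.32. HB1 and AT5G62720 of the 12 largest higher values are given with the nitrate genes, and the others were AT3G02120 (3.64), AT1G23100 (3.55), AT5G27330 (3.46), AT3G57490 (3.35) and AT5G16250 (3.30).

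**Figure D2:**
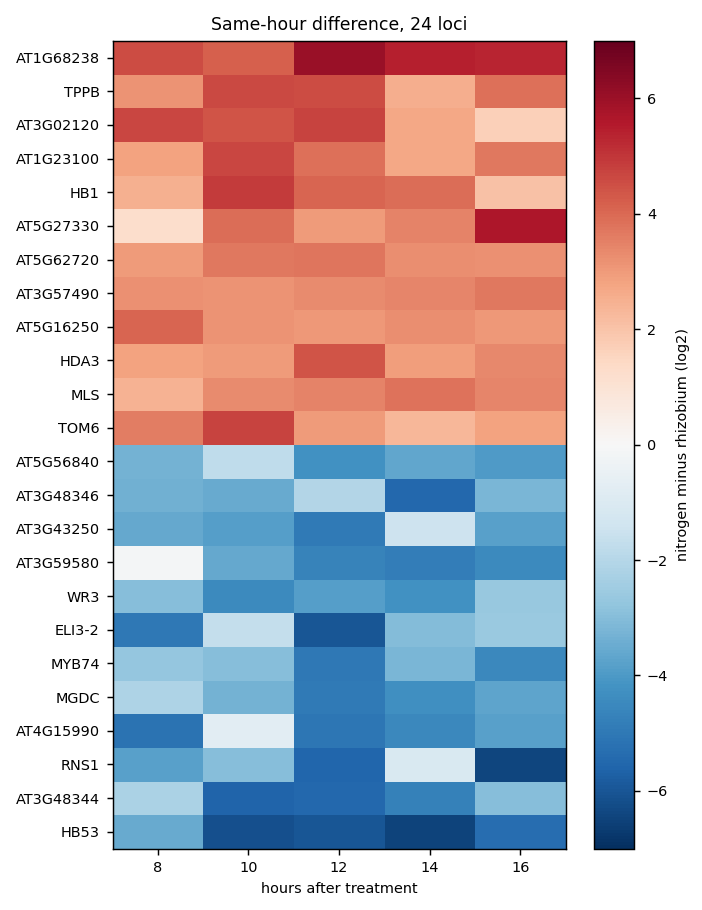
Same-hour difference (colour, log2, nitrogen minus rhizobium) of the 12 loci with the largest higher and the 12 with the largest lower mean, in rows, at each hour, in columns. Every cell has the sign of its row's mean, which the choice of rows required; AT3G59580 at 8 h (-0.14) is the palest.

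Whether the difference changed within the window was tested next. An F test over the same-hour differences at the 5 hours called 0 loci with limma (smallest adjusted p = 0.12), while 3260 loci (12%) had an unadjusted p below 0.05. A difference at 1 hour rests on 2 or 3 nitrogen and 3 rhizobium arrays. Its median SE over loci was 0.63 at 8, 12 and 14 h and 0.56 at 10 and 16 h, against 0.27 for the mean over the window. At 8, 12 and 14 h, leaving out a nitrogen array leaves that group with 1 array. The count depended on single arrays: leaving out nitrogen 14 h replicate 2 gave 386 loci, rhizobium 10 h replicate 2 gave 141, nitrogen 16 h replicate 2 gave 39 and rhizobium 8 h replicate 3 gave 13. The 5 loci of smallest p included RSH1, which encodes a plastid (p)ppGpp enzyme, with same-hour differences of 0.47, 1.43, 0.19, -1.46 and -2.97 from 8 to 16 h. The others were AT5G41900, AT3G22104, AT2G26940 and AT2G23755. None of the 5 passed after adjustment, and the mean over the hours is used below.

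Genes of nitrate uptake and assimilation were next compared. Of 20 in the list, 8 were higher and 1 was lower on nitrogen arrays, beside 4.74% higher and 5.92% lower among all loci, 6 of the 8 and the 1 lower under omission of any single array; the list median was 0.29. Most of the higher genes act after uptake. NIR1, nitrite reductase, differed by 0.63 ± 0.16 (adjusted p = 0.0054), with 13.62, 14.02 and 14.68 on nitrogen arrays and 13.07, 13.44 and 14.23 on rhizobium arrays. UPM1, which makes the sirohaem precursor that nitrite reductase carries, differed by 0.65 ± 0.12 (adjusted p = 0.00011).

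G6PD3 and RFNR2 supply electrons for nitrite reduction in root plastids, as a dehydrogenase of the pentose phosphate pathway and a root ferredoxin reductase. G6PD3 had 12.68, 12.92 and 13.67 on nitrogen arrays, against 9.97, 11.97 and 12.62 on rhizobium arrays, and the groups did not overlap (difference 1.28 ± 0.23, adjusted p = 9.3e-05). RFNR2 differed by 0.97 ± 0.23 (adjusted p = 0.0023). The related genes G6PD2 (0.25), RFNR1 (0.53) and FD3 (0.25) of the list were not called. ASN2, an asparagine synthetase, differed by 1.03 ± 0.25 (adjusted p = 0.0041). HB1, a haemoglobin that turns nitric oxide into nitrate, had the largest difference of the list, 3.48 ± 0.47 (adjusted p = 9e-07), with 11.61, 13.09 and 14.21 on nitrogen arrays and 5.38, 9.76 and 12.58 on rhizobium arrays.

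The reductase NIA1 (0.48) and the vacuolar exchanger CLC-A (0.61) were called as well, but less firmly. NIA1 was not called without nitrogen 8 h replicate 2 or nitrogen 12 h replicate 1 (adjusted p up to 0.083), and CLC-A lost its call when any of 10 arrays was left out singly (adjusted p up to 0.079). The second reductase gene, NIA2, had a difference of 0.18 (adjusted p = 0.33) and the dual-affinity transporter NRT1.1 one of 0.33 (adjusted p = 0.51). The high-affinity transporter NRT2:1 had -1.04 (adjusted p = 0.092).

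WR3, which the reference gives as the symbol of NRT3.1, encodes the partner protein that NRT2 transporters need for uptake. It was the list's lower gene, with 4.64, 7.02 and 9.96 on nitrogen arrays, against 8.33, 11.33 and 12.11 on rhizobium arrays, a difference of -3.63 ± 0.53 (adjusted p = 3.5e-06). Of the 12 nitrogen arrays, 9 lay below every rhizobium array. At 1 to 6 h its difference was of the opposite sign, 1.91 (adjusted p = 0.037). Of the HPP family, chloroplast nitrite transporters, AT5G62720 was higher by 3.37 ± 0.39 (adjusted p = 6.8e-08), with 9.72 to 12.28 on nitrogen arrays and 5.89 to 11.45 on rhizobium arrays, and AT3G47980 had -0.19 (adjusted p = 0.57).

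Among 21 nitrate signalling regulators, 6 were higher and 3 lower (median 0.19), beside 4.74% higher and 5.92% lower among all loci. The 6 and 2 of the 3 were also called under omission of any single array. LBD39, a repressor of nitrate-responsive genes, had 11.01, 12.15 and 12.76 on nitrogen arrays, against 8.59, 9.64 and 11.91 on rhizobium arrays, a difference of 1.96 ± 0.25 (adjusted p = 3.5e-07). Its relative LBD38 differed by 1.05 ± 0.20 (adjusted p = 0.00016). LBD37, the third of that group, had 0.26 (adjusted p = 0.36). BT2, a scaffold protein that represses NRT2 genes, differed by 1.08 ± 0.32 (adjusted p = 0.021), and rhizobium 10 h replicate 1 lay lowest at 6.88, with the highest rhizobium array at 12.36.

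The kinase CIPK23, which phosphorylates NRT1.1, was higher by 0.64 ± 0.12 (adjusted p = 0.00019), and CIPK3 of the same kinase family by 1.25 ± 0.29 (adjusted p = 0.002). TGA1, a bZIP factor of the nitrate response, was higher by 1.11 ± 0.26 (adjusted p = 0.0021). The 3 lower regulators were all NIN-like proteins. AT3G59580, synonym NLP9, had 4.71, 5.78 and 6.73 on nitrogen arrays, against 4.93, 10.10 and 11.76 on rhizobium arrays, a difference of -3.53 ± 0.54 (adjusted p = 5.8e-06).

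The NLP9 difference was near 0 at 8 h (-0.14) and between -3.56 and -4.85 from 10 to 16 h, but the change among hours was not called for any locus. AT2G43500, synonym NLP8, had 6.02, 8.60 and 10.52 on nitrogen arrays, against 10.51, 11.55 and 12.26 on rhizobium arrays (difference -2.85 ± 0.31, adjusted p = 1.7e-08). The ranges met only at their ends. NLP7, the best known nitrate sensor of the family, differed by -0.42 (adjusted p = 0.033), and lost its call when any of 9 arrays was left out singly (adjusted p up to 0.18).

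In the HRS1/HHO group of GARP-type repressors, 4 of 6 members were higher and 0 lower (median 0.96), beside 4.74% and 5.92% of all loci. Of the 4, AT1G25550 (1.00 ± 0.18, adjusted p = 0.00013) and AT1G68670 (0.92 ± 0.26, adjusted p = 0.014) were also called under omission of any single array. AT1G13300, synonym HRS1, differed by 0.70 and lost its call without nitrogen 8 h replicate 2, nitrogen 12 h replicate 2 or rhizobium 16 h replicate 3 (adjusted p up to 0.054). AT4G37180 differed by 1.21 and lost its call when any of 11 arrays was left out singly (adjusted p up to 0.097). AT3G25790 had 1.46 (adjusted p = 0.062).

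Genes known from nitrogen starvation lay mostly in the other direction. Of 14, 7 were lower and 1 was higher, beside 5.92% lower and 4.74% higher among all loci. Each of these calls also held under omission of any single array, and the list median was -0.92. LHT1, a root amino acid importer, had 9.40, 10.88 and 11.41 on nitrogen arrays, against 12.14, 13.52 and 13.89 on rhizobium arrays, with no overlap and a difference of -2.71 ± 0.25 (adjusted p = 3.4e-10). AMT1;1, an ammonium transporter, had 9.96, 11.56 and 12.68 on nitrogen arrays, against 11.96, 13.12 and 13.65 on rhizobium arrays (-1.54 ± 0.19, adjusted p = 2.5e-07). Its nitrogen arrays overlapped the low end of the rhizobium arrays.

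DUR3, the urea transporter, differed by -1.94 ± 0.51 (adjusted p = 0.0072), and its rhizobium arrays spread widely, from 4.86 to 11.07, against 4.68 to 7.31 on nitrogen arrays. NRT2.4, a high-affinity nitrate transporter of starved roots, differed by -1.45 ± 0.31 (adjusted p = 0.00094), with 4.64 to 5.82 on nitrogen arrays and 4.81 to 10.45 on rhizobium arrays. Among the enzymes, the glutamine synthetase GLN1;4 differed by -1.47 ± 0.17 (adjusted p = 8.4e-08) and the asparagine synthetase ASN1 by -1.73 ± 0.20 (adjusted p = 6.1e-08).

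GLN1;4 had 9.15, 10.79 and 11.35 on nitrogen arrays, against 11.06, 12.33 and 12.79 on rhizobium arrays, and ASN1 had 10.43, 12.34 and 13.33 against 13.14, 13.86 and 14.48. ASN1 and ASN2, which make the same amino acid, thus differed in opposite directions. GDH3, a glutamate dehydrogenase subunit gene, was lower (-1.04 ± 0.27, adjusted p = 0.0076), while GDH1 was the list's higher gene (1.01 ± 0.23, adjusted p = 0.0019). The other ammonium transporter genes had -0.34 for AMT1;2, -0.79 for AMT1;3 and -0.04 for AMT1;5, and none was called.

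**Figure D3:**
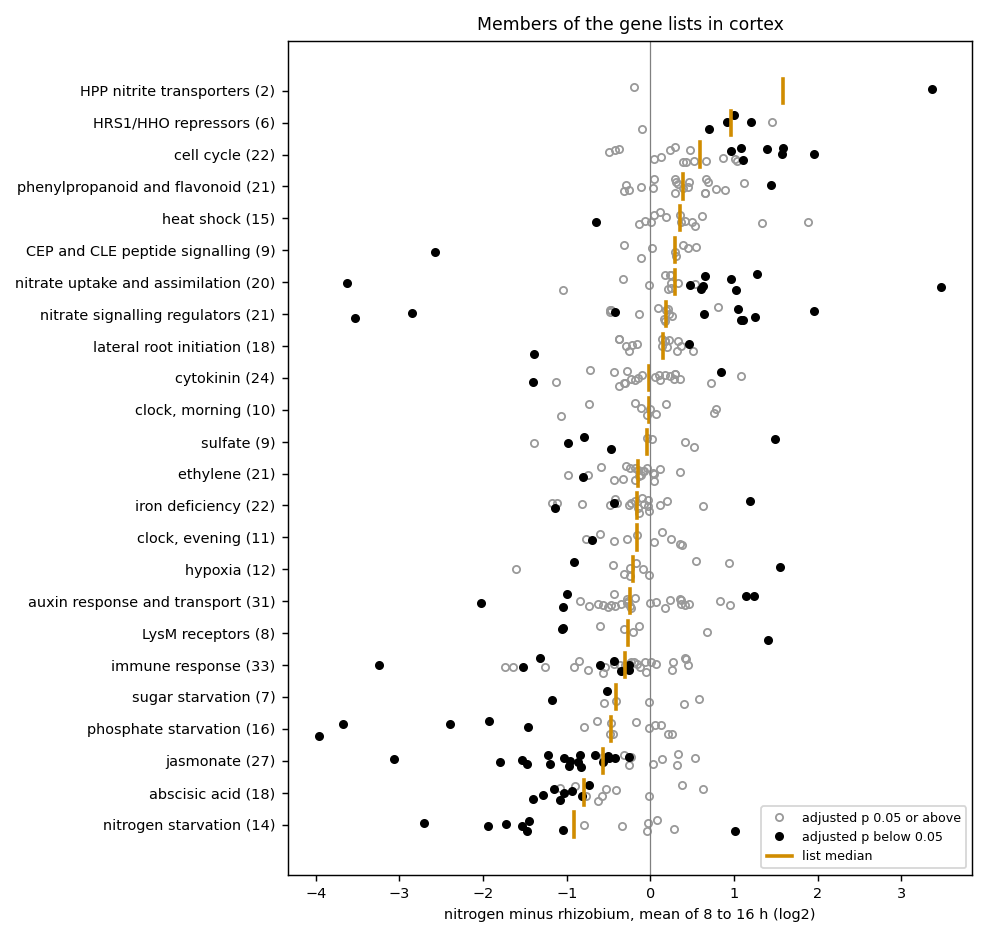
Nitrogen minus rhizobium difference (x axis, log2, mean of 8 to 16 h) of each member of 24 gene lists (rows, number of members in parentheses), ordered by list median (orange bars). Filled points are called loci (adjusted p below 0.05) and open points are not; vertical scatter within a row has no meaning. All called points of the jasmonate, abscisic acid, phosphate starvation and immune lists lie below 0, and those of the cell cycle list above it.

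Jasmonate genes were lower as a group. Of 27, 18 were lower and 0 higher on nitrogen arrays, against 5.92% lower among all loci, and the list median was -0.56. All but the hormone-inactivating oxidase gene CYP94B3 (-1.20) were also called under omission of any single array; CYP94B3 was not called without nitrogen 8 h replicate 2 (-1.02, adjusted p = 0.073). The enzymes of synthesis are given in their order along the pathway. The lipoxygenases LOX3 and LOX4 differed by -1.22 ± 0.30 (adjusted p = 0.0039) and -0.87 ± 0.23 (adjusted p = 0.0079). AOS, allene oxide synthase, had 9.00, 10.05 and 10.85 on nitrogen arrays, against 10.29, 10.92 and 12.29 on rhizobium arrays, a difference of -1.03 ± 0.18 (adjusted p = 8.1e-05).

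The cyclases AOC1 and AOC2 differed by -0.97 and -0.96, the reductase OPR3 by -0.49 (adjusted p = 0.00032), and JAR1, which joins jasmonate to isoleucine to give the active hormone, by -0.50 (adjusted p = 0.0058). The arrays of the groups overlapped for each of these. The lipoxygenase gene LOX2, the cyclase genes AOC3 and AOC4 and the gene CYP94C1 were not called. Of the JAZ repressors in the list, 10 were lower and JAZ4 was not called. JAZ7 had 5.60, 7.53 and 9.97 on nitrogen arrays, against 8.93, 10.76 and 12.08 on rhizobium arrays, a difference of -3.06 ± 0.48 (adjusted p = 1e-05).

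JAZ8 differed by -1.80 ± 0.38 (adjusted p = 0.00083), TIFY7 (synonym JAZ9) by -1.54 ± 0.36 (adjusted p = 0.0028) and JAZ5 by -1.48 ± 0.29 (adjusted p = 0.00033). JAZ10, JAZ6, TIFY10B (synonym JAZ2), JAZ3, JAZ12 and JAZ1 were lower by smaller amounts, with differences between -0.84 and -0.25. The receptor gene COI1 (-0.23, adjusted p = 0.57) and the factor gene MYC2 (-0.25, adjusted p = 0.068) were not called. Neither were the storage protein genes VSP1 (0.54) and VSP2 (0.33), which are jasmonate responsive in leaves.

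**Figure D4:**
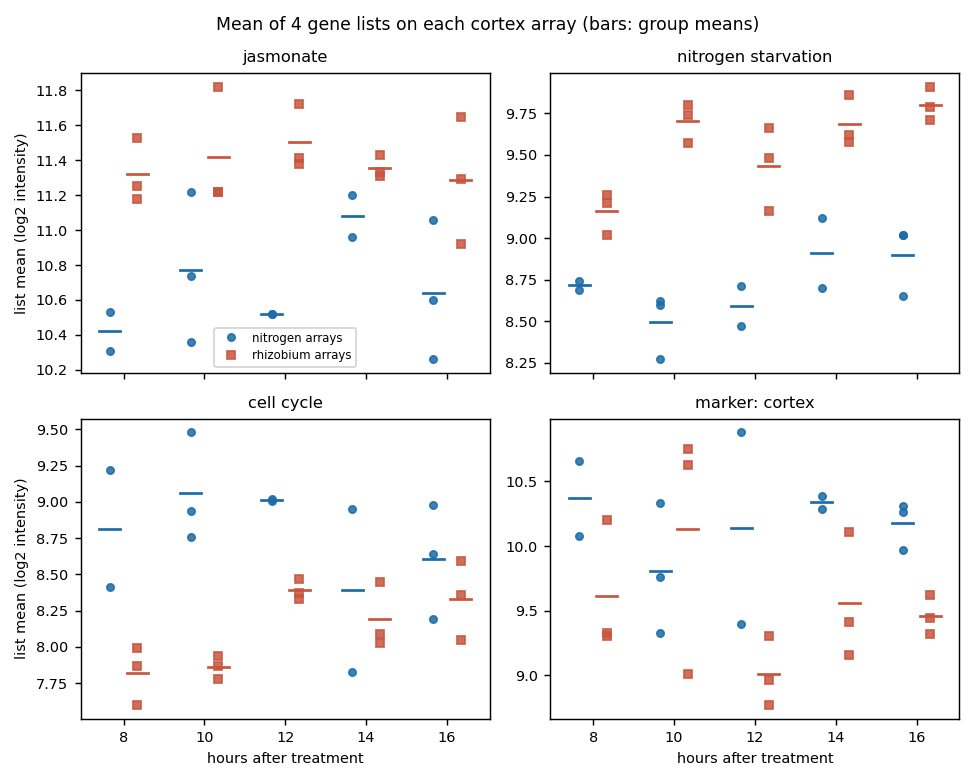
Mean log2 intensity over the members of 4 gene lists (y axes) on each cortex array, against hours after treatment (x axes). Circles are nitrogen arrays, squares to their right rhizobium arrays, bars group means; the jasmonate means run from 10.26 to 11.22 on nitrogen and 10.92 to 11.82 on rhizobium arrays, and the nitrogen starvation means from 8.27 to 9.12 and from 9.02 to 9.91.

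Abscisic acid genes were compared because this hormone also responds to nutrient supply. Of 18, 8 were lower and 0 higher (median -0.80), beside 5.92% lower among all loci, 4 of the 8 under omission of any single array. The phosphatase ABI1, a negative regulator of the pathway, had 11.45, 11.98 and 12.66 on nitrogen arrays, against 12.22, 12.81 and 13.16 on rhizobium arrays (difference -0.73 ± 0.14, adjusted p = 0.00032). The cold and drought gene KIN1 differed by -0.94 ± 0.21 (adjusted p = 0.0012), the homeobox gene HB-12 by -1.15 ± 0.28 (adjusted p = 0.0037) and CYP707A1, which breaks the hormone down, by -1.03 ± 0.26 (adjusted p = 0.0066). The synthesis gene NCED3 had -1.08 (adjusted p = 0.15). The lists of abscisic acid and jasmonate hold different loci.

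Of 33 immune response genes, 8 were lower and 0 higher (median -0.30), beside 5.92% lower among all loci, 4 of the 8 under omission of any single array. MLO12, a membrane protein of powdery mildew susceptibility, had 6.54, 7.88 and 10.80 on nitrogen arrays, against 10.54, 11.42 and 12.55 on rhizobium arrays (-3.25 ± 0.38, adjusted p = 8.4e-08). WRKY53, a defence and senescence factor, differed by -1.32 ± 0.33 (adjusted p = 0.0051). The MAP kinase MPK3 differed by -0.60 ± 0.09 (adjusted p = 1.2e-05), and AT1G59870 (PEN3), an exporter of defence compounds, by -0.44 ± 0.08 (adjusted p = 7.9e-05). The other 25 genes were not called. Among 8 LysM receptor genes, CERK1, the chitin co-receptor, was lower (-1.04 ± 0.24, adjusted p = 0.0024) and LYM1, a peptidoglycan binding protein, was higher (1.41 ± 0.36, adjusted p = 0.006), with rhizobium arrays from 5.24 to 11.74 and nitrogen arrays from 11.27 to 12.13. LYK4 (-1.06) was called, but lost its call when any of 5 arrays was left out singly (adjusted p up to 0.11).

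Of 16 phosphate starvation genes, 5 were lower and 0 higher (median -0.48), beside 5.92% lower and 4.74% higher among all loci. All 5 were also called under omission of any single array. MGDC replaces phospholipids with galactolipids when phosphate is short. It had 5.12, 6.18 and 7.71 on nitrogen arrays, against 8.06, 9.73 and 11.32 on rhizobium arrays, with no overlap (-3.68 ± 0.36, adjusted p = 5.9e-10). Its relative MGD2 differed by -1.46 ± 0.34 (adjusted p = 0.0025), the phosphate importer PHT1;1 by -1.93 ± 0.36 (adjusted p = 0.00016), and AT1G73010 (PS2), a pyrophosphatase, by -2.39 ± 0.49 (adjusted p = 0.00057). RNS1, given above, is the fifth. Genes of the phosphate sensor group, SPX1 (-0.79), SPX2 (-0.48), SPX3 (0.21) and SPX4 (-0.45), were not called.

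Cell cycle genes were higher where they were called, 7 of 22 with 0 lower (median 0.59), beside 4.74% higher and 5.92% lower among all loci. Of the 7, 4 were also called under omission of any single array. These were the replication helicase subunit gene MCM5 (1.40 ± 0.33, adjusted p = 0.0025), the mitotic cyclins CYCB1;4 (1.58 ± 0.36, adjusted p = 0.002) and CYCB2;1 (1.08 ± 0.28, adjusted p = 0.0069), and the kinase gene CDKB1;2 (1.11 ± 0.24, adjusted p = 0.0012). MCM5 had 9.58, 10.82 and 11.65 on nitrogen arrays, against 7.86, 9.25 and 11.02 on rhizobium arrays. In bulk sorted cells, more cycling cells and more transcript per cell cannot be told apart, and the same holds for fewer cells or less transcript for every lower gene.

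Other hormone and nutrient lists are read against the 10.7% of all loci called, and a list with 1 or 2 calls is given for those genes alone. The auxin response gene IAA19 was lower, with 12.05, 12.79 and 13.38 on nitrogen arrays, against 13.32, 13.75 and 14.07 on rhizobium arrays (means over hours 12.72 and 13.72, SE of the difference 0.12, adjusted p = 1.6e-07). It was the 1 auxin gene of 5 called, among 31 in the list, whose call held without any single array. The ethylene list had 1 call of 21, below the 10.7% of all loci, namely the factor gene ERF2 (-0.81 ± 0.17, adjusted p = 0.00095). The cytokinin list had 2 of 24, with the cytokinin oxidase CKX5 higher (0.85 ± 0.20, adjusted p = 0.0034) and the response regulator ARR7 lower (-1.40); ARR7 lost its call when any of 14 arrays was left out singly (adjusted p up to 0.14).

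In the lateral root initiation list, SHY2 (synonym IAA3), an auxin repressor, was lower (-1.39 ± 0.38, adjusted p = 0.011), and 16 of 18 genes were not called. CLE1, a peptide gene of nitrogen starvation, was the 1 call among 9 peptide signalling genes (-2.58 ± 0.63, adjusted p = 0.0041), a share near that of all loci. Of 9 sulfate genes, 3 were lower and 1 higher. The reductases APR1 (-0.79 ± 0.11, adjusted p = 1.4e-06) and APR3 (-0.47 ± 0.09, adjusted p = 0.00035) were lower, and ATSDI1, a sulfur deficiency gene, was higher (1.49 ± 0.40, adjusted p = 0.0083). LSU1, a gene of sulfur-deficient plants, was the third lower gene (-0.99), and lost its call when any of 17 arrays was left out singly (adjusted p up to 0.1). The sugar starvation list had 2 lower genes of 7, TPS11 (-1.18 ± 0.22, adjusted p = 0.00018) and TPS8 (-0.52 ± 0.10, adjusted p = 0.00014), both of the trehalose-phosphate synthase family.

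Of 22 iron deficiency genes, 3 were called, and of these BTS, a ubiquitin ligase that limits iron uptake, was lower under omission of any single array (-0.44 ± 0.12, adjusted p = 0.0088). Of 12 hypoxia genes, ADH1, alcohol dehydrogenase, was lower (-0.91 ± 0.21, adjusted p = 0.002), and AT5G39890, synonym PCO2, an oxygen-sensing cysteine oxidase, was higher (1.55 ± 0.47, adjusted p = 0.024). The PCO2 call was lost when any of 4 arrays was left out singly (adjusted p up to 0.12): nitrogen 8 h replicate 2, 10 h replicate 2, 12 h replicate 1 or 14 h replicate 2. None of 10 morning clock genes was called by limma, and 2 had an unadjusted p below 0.05, beside 6258 of all 27143 loci. ZTL, a blue light receptor of the clock, was the 1 call of 11 evening genes (-0.70 ± 0.17, adjusted p = 0.0047). In the phenylpropanoid list 1 of 21 was higher and in the heat shock list 1 of 15 lower, and neither call held under omission of every single array.

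Markers of the sorted cell type and of its neighbours were set beside these results. The arrays compared with cortex here are pericycle by title, while the series design text names epidermal cells. Which cells they hold was not tested. Over all nitrogen and rhizobium arrays of the window, 3 of 4 cortex markers were higher on cortex than on pericycle arrays, AT1G09750 with 14.68 against 13.31, while AT1G62500 had 6.85 against 6.96. Of 12 endodermis markers, 11 were lower on cortex arrays, as CASP1 (7.35 against 11.21) and MYB36 (5.49 against 9.52), and SCR was higher (9.94 against 9.22). Of 10 epidermis and root hair markers, 9 were lower, as RHD6 (7.17 against 11.88), and MYB66 was higher (10.02 against 9.80). Higher on cortex arrays were also 1 of 7 pericycle and stele, 4 of 10 phloem, 5 of 10 xylem, 0 of 4 root cap and 9 of 10 green tissue markers, among them CESA4 of xylem (11.36 against 9.51) and NAC045 of phloem (6.94 against 5.86). Within cortex, AT1G62500 was higher on nitrogen arrays (1.07 ± 0.28, adjusted p = 0.0085), and the cortex list mean ran from 9.33 to 10.88 on nitrogen and 8.77 to 10.75 on rhizobium arrays. The epidermal factor gene MYB66 (synonym WER) was lower on nitrogen arrays (-2.69 ± 0.49, adjusted p = 0.00011), as was 1 phloem gene under omission of any single array, NAC045 (-2.64 ± 0.60, adjusted p = 0.002).

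No marker of endodermis (12 genes), pericycle and stele (7), xylem (10) or root cap (4) was called by limma. Of them 0, 1, 2 and 2 had an unadjusted p below 0.05, beside 6258 of all 27143 loci. The list means of epidermis and root hair markers ran from 6.09 to 7.40 on nitrogen and 6.05 to 7.87 on rhizobium arrays, and those of green tissue markers from 7.43 to 10.96 and from 7.08 to 10.04. Of the 10 green tissue markers, 9 had a positive difference, none of them called, and the list median was 0.76. The other marker, CA1, was called lower, beside 5.92% lower among all loci. Its call was lost without nitrogen 8 h replicate 2 or nitrogen 14 h replicate 1. The part of cell composition in the differences was not tested.

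The window was then compared with the hours before it, 1, 2, 4 and 6 h. The change of the difference, 8 to 16 h minus 1 to 6 h, was called for 1233 loci (4.54%), 651 higher (2.4%) and 582 lower (2.14%). The count and its balance depended on the scaling and the fit. With each array centred on its median, which shifts the change of all loci by 0.13, it was 1012 loci, 299 higher and 713 lower. With all arrays of the series in the fit it was 234 (78 higher, 156 lower), and with array weights 357 (211 higher, 146 lower). The 2 nitrogen arrays at 2 h correlated at 0.75, the lowest of any replicate pair in the series. How far the count depends on single arrays of 1 to 6 h was not tested. Of the 1233, 670 (2.47% of loci tested) were also called in the window itself. Nitrogen starvation genes had a median difference of -0.92 at 8 to 16 h, against 0.23 at 1 to 6 h, when 4 of 14 were higher and 0 lower (7.85% and 6.17% of all loci). The change was called as lower for 8 of the 14. LHT1 changed by -2.76 (adjusted p = 3.1e-05), having been at 0.05 at 1 to 6 h, and DUR3 by -3.67 (adjusted p = 0.0039), having been higher on nitrogen arrays at 1 to 6 h (1.73, adjusted p = 0.043).

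The jasmonate list had a median of -0.56 at 8 to 16 h and 0.01 at 1 to 6 h. In the earlier window 1 gene was higher and 2 were lower, beside 7.85% higher and 6.17% lower among all loci. The change was called for 8 of its 27 genes, beside 4.54% of all loci. Of these 8, 7 changed towards lower values, beside 2.14% of all loci. JAZ7 changed by -3.07 (adjusted p = 0.012), AOS by -1.12 (adjusted p = 0.016) and OPR3 by -0.69 (adjusted p = 0.0052). The abscisic acid list had a median of 0.17 at 1 to 6 h. Of its 18 genes, 4 had a called change, all lower, beside 2.14% lower among all loci. KIN1 was at -0.94 at 8 to 16 h and 0.76 at 1 to 6 h (adjusted p = 0.031).

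Named by size among loci called in both comparisons, the largest changes towards lower values were those of WR3 (-5.54 ± 0.82, adjusted p = 0.00014), the malonyltransferase gene PMAT2 (-4.75 ± 0.63, adjusted p = 3.1e-05), HB53 (-4.73 ± 0.80, adjusted p = 0.00057), MYB74 (-4.61 ± 0.70, adjusted p = 0.00021) and AT4G15630 (-4.25 ± 0.82, adjusted p = 0.002). PMAT2 was lower on nitrogen arrays at 8 to 16 h (-2.44 ± 0.41) and higher at 1 to 6 h (2.31), both called. The call of AT4G15630 in the window itself (-1.85) was lost without nitrogen 8 h replicate 2 (-1.63, adjusted p = 0.063). Towards higher values they were AT1G52070 (4.60), AT2G39560 (3.71), AT5G16250 (3.55), the mitochondrial locus ATMG00240 (3.45) and AT1G73620 (3.39).

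**Figure D5:**
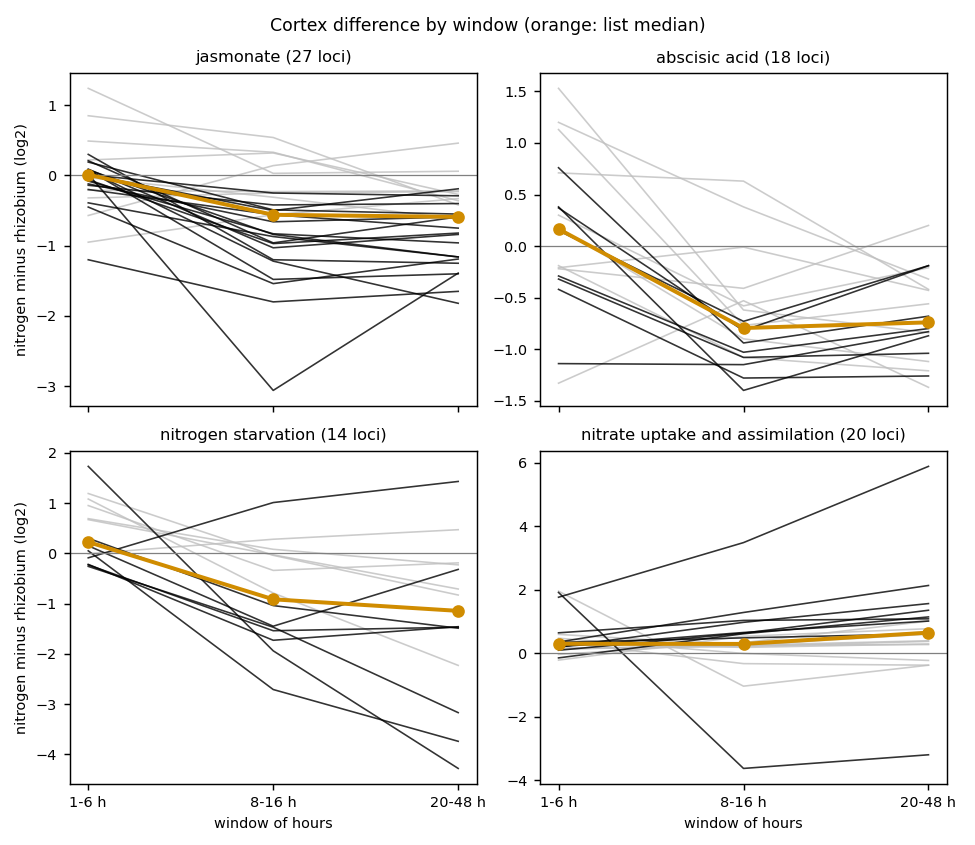
Nitrogen minus rhizobium difference (y axes, log2) of each member of 4 gene lists in the windows 1 to 6 h, 8 to 16 h and 20 to 48 h (x axes). Lines are loci, black where called at 8 to 16 h, and orange points are list medians; the nitrogen starvation median is 0.23, -0.92 and -1.14 in the 3 windows and that of jasmonate 0.01, -0.56 and -0.59.

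Against the hours after it, 20, 24, 36 and 48 h, the difference changed for 4 loci (0.0147%), while 1809 (6.66%) had an unadjusted p below 0.05; leaving out nitrogen 14 h replicate 2 gave 18 loci. Of the 4, GLN1;4 was also called in the window: its difference was -1.47 at 8 to 16 h and -3.17 at 20 to 48 h, a change of 1.70 ± 0.25 (adjusted p = 0.00036). The others, named because the count is small, were EDF3 (1.38), AT3G25790 (-3.98) and FSD1 (-3.38). FSD1, an iron superoxide dismutase, had -0.15 at 8 to 16 h and 3.23 at 20 to 48 h.

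The same lists were counted in the later window, where 5.39% of all loci were higher and 5.7% lower. Nitrogen starvation had 7 lower and 2 higher genes of 14 at 20 to 48 h, jasmonate 16 lower and 1 higher of 27, and nitrate uptake and assimilation 12 higher and 1 lower of 20. HB1 had 3.48 at 8 to 16 h and 5.88 at 20 to 48 h, and AT3G59580 (NLP9) had -3.53 and -6.61; neither change was called.

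Cells titled pericycle, sorted in the same study and at the same hours, gave 1513 calls (5.57%) for the same comparison. The difference between the cell types was called for 0 loci by limma (smallest adjusted p = 0.1), and 1931 loci (7.11%) had an unadjusted p below 0.05; leaving out nitrogen 12 h replicate 1 or nitrogen 14 h replicate 2 gave 3 loci each. The median SE of that difference was 0.46, against 0.27 for the difference within cortex. List medians stood side by side as -0.92 in cortex and -0.95 in pericycle for nitrogen starvation, -0.56 and -0.73 for jasmonate, 0.59 and 0.23 for the cell cycle, and 0.29 and 0.37 for nitrate uptake and assimilation.

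MGDC had -3.68 in cortex and -3.46 in pericycle, and JAZ7 had -3.06 and -2.92. HB53 had -5.49 and -2.99 (difference -2.50 ± 0.85, adjusted p = 0.48), and LHT1 -2.71 and -1.02. AT3G02120 had 3.64 in cortex and -0.58 in pericycle, a difference of 4.22 ± 0.99 (adjusted p = 0.13). None of these passed, and no locus is called particular to cortex.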

How the data were processed

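Per the labels' protocols, RNA of sorted cells was amplified (Ovation Pico WTA), labelled with Cy3 and hybridised to NimbleGen arrays designed on the TAIR10 genome. The deposited values are log2 intensities, per the submitters' processing notes made with RMA; its version is not stated in the labels. The series record states that arrays were selected by quality control. The whole table has 31524 rows, and 0 value columns were left unmapped. Rows were averaged to 27143 loci, 26555 of them in the reference table (TAIR10.1). Low values have no stated background, so differences against arrays near the bottom of the scale may be understated.

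Using limma 3.58.1 (R 4.3.3), group means were estimated from the 70 cortex nitrogen and rhizobium arrays of all 13 hours (44 residual degrees of freedom), which share 1 estimate of spread; the cell type comparison used 153 arrays. Differences are means of same-hour differences. The fit was tested on simulated data. Their noise was drawn independently for each array, so this could not test the effect of shared batches or plantings. Deviations from group means had a mean correlation of -0.011 over 12 pairs of arrays with the same replicate number. Over 24 pairs with different numbers it was 0.006. In groups of 2 or 3 arrays such deviations partly mirror each other, so this cannot tell whether the numbers pair samples. The fit treats arrays as unpaired. Text names the 12 largest called loci each way with 1 sign at all hours, members of 32 gene lists (464 entries), the 5 smallest p among hours and the 5 largest each way for window changes also called in the window. The arrays, lists and fit were chosen with earlier results of these data known. No slide or batch is given. Figures used matplotlib 3.10.9.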

Additional observations from a re-analysis of the deposited data

Results flagged for a closer look

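The difference between nitrogen and rhizobium cortex cells was not the same in each window of hours, by a test of the change itself in the limma fit. It changed between 1 to 6 h and 8 to 16 h for 1233 loci and between 8 to 16 h and 20 to 48 h for 4. The 1233 became 234 with all arrays of the series in the fit and 357 with array weights. By 8 to 16 h minus 1 to 6 h, the largest changes among loci also called in the window were 4.60 for AT1G52070, 3.71 for AT2G39560, 3.55 for AT5G16250, 3.45 for ATMG00240 and 3.39 for AT1G73620 in the positive direction. In the negative direction they were -5.54 for WR3, -4.75 for PMAT2, -4.73 for HB53, -4.61 for MYB74 and -4.25 for AT4G15630. By 8 to 16 h minus 20 to 48 h, GLN1;4 changed by 1.70. Groups of 2 or 3 arrays are too small for a test of single outlying arrays.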

How the results depend on the processing

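The 2893 calls of the window became 1683 with all arrays of the series in the fit and 1515 to 3170 under omissions of an array, replicate number or hour. The 0 calls among the 5 hours became 7 with all arrays, 1 after quantile normalization, 6 with array weights and 0 to 953 under omissions. The 1233 changes from 1 to 6 h became 234, 357 with array weights and 424 to 1400; the 4 changes to 20 to 48 h became 2, 9 and 1 to 18; the 0 differences between cell types became 4, 32 and 0 to 3. Centring arrays on their medians moved the share of higher loci among the 1233 changes from 52.8% to 29.5%, and that among the window's calls from 44.5% to 46.7%. With the replicate block the window had 2691 calls, and its other counts were 0, 1304, 4 and 0. Of 139 loci followed through 44 alternatives, 135 were called. Of these 135, 0 changed sign, 57 kept their call throughout and 34 lost it without some single array. Changes of sign were not counted for the uncalled loci. Precision is limited by how many arrays there are. Omissions from nitrogen groups of 2 arrays left 1 array for that hour. The causes were not tested.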

Other observations

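Groups of loci picked after their values were seen are given as description only. Of 67 loci with "ribosomal protein" in their reference name, 42 were higher on nitrogen arrays and 0 lower, beside 4.74% higher and 5.92% lower among all loci, with a median difference of 0.87. Their mean log2 intensity ran from 11.35 to 11.83 on nitrogen arrays, against 10.19 to 11.34 on rhizobium arrays. At 1 to 6 h the same loci had a median of 0.14, with 2 higher and 1 lower (7.85% and 6.17% of all loci), and at 20 to 48 h one of 0.77, with 38 higher (5.39%). The ribosomal protein gene AT4G31700 (RPS6) differed by 1.18 ± 0.18, with no overlap between the groups. Of 94 mitochondrial genome loci 16 were higher and 0 lower at 8 to 16 h, beside the same 4.74% and 5.92% (median 0.56), and of 67 chloroplast genome loci 23 were higher and 0 lower (median 0.63), all 67 with a positive difference. The chloroplast loci had a median of 0.77 at 1 to 6 h, when 21 were higher, beside 7.85% of all loci.

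A run of neighbouring loci was lower on nitrogen arrays: CYP71A21 (-1.37), PIMT1 (-1.06), CEP2 (-2.55), AT3G48344 (-4.19) and AT3G48346 (-3.52), while CEP3 next to them had 0.18 (adjusted p = 0.81) and BT2, beyond it, was higher (1.08). Among the 22 loci without overlap were also SVR1, a chloroplast pseudouridine synthase (2.44 ± 0.34), the kinase gene STY46 (2.02 ± 0.38), the inositol oxygenase gene MIOX2 (1.15 ± 0.19) and the small peptide gene RTFL4 (-1.59 ± 0.22).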
